A study of Mus musculus with 20 samples.

Results

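Matrix metalloproteinases (MMPs) and tissue inhibitors of metalloproteinases (TIMPs) are described here as 10 genes taken by symbol from tables of 24848 genes: Mmp2, Mmp3, Mmp9, Mmp10, Mmp13, Mmp14, Mmp19, Timp1, Timp2 and Timp3. The RNA came from liver mesenchymal cells of C57BL/6 mice, with no genetic change named in the labels. Portal mesenchymal stem cells (PMSC) and hepatic stellate cells (HSC) were profiled without culture. The myofibroblasts derived from the portal cells were profiled after 3 days of culture (PMSC-MF-3d) and after 7 days (PMSC-MF-7d), and those derived from the stellate cells form 1 further group (HSC-MF-7d). The sample titles give 7 days for that last group and the series text gives 3, so both portal cultures were compared with it. Each group had 4 libraries, 20 in all, and no label says whether libraries came from separate animals or cultures. P-values therefore measure the spread between these libraries only, which may be technical. All 10 genes passed the filter on low counts that 14751 genes passed.

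MMPs are zinc proteases that cut the proteins of the extracellular matrix. Most are secreted as inactive proenzymes, and each TIMP protein blocks the active site of an MMP by binding to it. In the liver, stromal cells are a main source of both families, and their balance is known for its part in the deposition and the resolution of scar matrix. MMP genes are commonly grouped into collagenases, stromelysins, gelatinases and membrane-bound members.

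Levels between groups are in CPM, counts scaled to a common library size by trimmed means of M-values, and levels between genes are in TPM, which also allow for transcript length. Changes are log2 fold changes ± standard error (SE) from the edgeR fit to all 20 libraries. A gene is called higher or lower at a Benjamini-Hochberg adjusted p under 0.05 over all genes tested. Summed counts per library ran from 11810532 to 26675589. Libraries are listed in the order of their replicate numbers, which have no meaning as an order.

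The labels were set beside the marker lists. The 9 portal mesenchyme markers summed to 9582 to 11432 CPM in PMSC and to 22.0 to 35.9 CPM in HSC, and the 9 stellate markers to 1732 to 2223 CPM in PMSC and to 21784 to 33013 CPM in HSC. The 5 myofibroblast markers were at 7994 CPM or more in PMSC and all cultures and at 253 to 672 CPM in HSC. HSC also held RNA of other liver cells. The 7 hepatocyte markers summed to 3016 to 12508 CPM in HSC and 625 to 1041 CPM in PMSC, the 7 macrophage markers to 1663 to 6226 CPM in HSC and 7.73 to 18.2 CPM in PMSC, and the 7 endothelial markers to 4833 to 5641 CPM in HSC and 35.7 to 150.4 CPM in PMSC. Of the 7 hepatocyte markers, 6 were called lower in PMSC and 1, Cyp2e1, higher (2.31 ± 0.37, edgeR adjusted p = 1.3e-05). Their sum in PMSC therefore does not stand for the whole list. The macrophage markers Cd163, Vsig4 and Marco had no counts in PMSC. In the 3 cultures the hepatocyte markers summed to at most 1.998 CPM, the endothelial markers to at most 20.1 CPM and the macrophage markers to at most 43.0 CPM. This last sum was in PMSC-MF-3d, where 1 macrophage marker, Csf1r, was called higher than in PMSC (4.04 ± 0.42) and 2 lower. HSC libraries 1 and 2 stood apart, with hepatocyte sums of 12508 and 11630.3 CPM against 3016 and 4201 CPM in libraries 3 and 4. Results that rest on HSC were therefore also computed without both libraries, an alternative chosen after seeing the data. The values are given wherever a called result moved by more than 1.5 times or a call or direction changed, and the other results of the 10 genes kept their direction and call.

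The MMP transcripts differed in make-up between all 5 groups. In PMSC the 7 MMP genes summed to 2139 ± 251 TPM (SD, n = 4), of which Mmp2 held 43.9% ± 5.85 and Mmp3 38.4% ± 6.26. In HSC they summed to 264 ± 14.3 TPM, and Mmp14 held 67.3% ± 2.67 and Mmp2 28.3% ± 3.61. After culture of the stellate cells the sum was 2389 ± 396 TPM, and Mmp10 held 46.5% ± 1.78, Mmp14 22.5% ± 6.48 and Mmp13 19.5% ± 2.83. Portal cultures had lower sums, 848 ± 168 TPM at 3 days and 793 ± 53.3 TPM at 7 days. Mmp14 led both, with 56.5% ± 7.30 and 80.9% ± 4.31 of the MMP sum.

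The 3 TIMP genes summed to 3257 ± 182 TPM in PMSC and 480.5 ± 52.4 TPM in HSC (SD, n = 4 each). The sums in culture were 8735 ± 342 TPM for PMSC-MF-3d, 4558 ± 286 TPM for PMSC-MF-7d and 3423 ± 156 TPM for HSC-MF-7d. Timp2 held 63.7% ± 4.46 of the TIMP sum in PMSC. Timp1 held 92.3% ± 0.822 of it after 3 days of portal culture and 55.5% ± 4.33 after 7 days, against 1.68% ± 1.74 in HSC. In HSC Timp3 held 52.9% ± 5.01, and in HSC-MF-7d Timp3 and Timp1 held 44.5% ± 1.76 and 41.5% ± 1.27. The ratio of summed MMP to summed TIMP TPM lay at 0.615 to 0.692 in PMSC, 0.538 to 0.815 in HSC-MF-7d and 0.518 to 0.617 in HSC. The portal cultures had ratios of 0.0667 to 0.114 at 3 days and 0.154 to 0.198 at 7 days, so that all 8 portal cultures were below all 12 other libraries. These are ratios of transcripts and say nothing of enzyme activity.

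**Figure D1:**
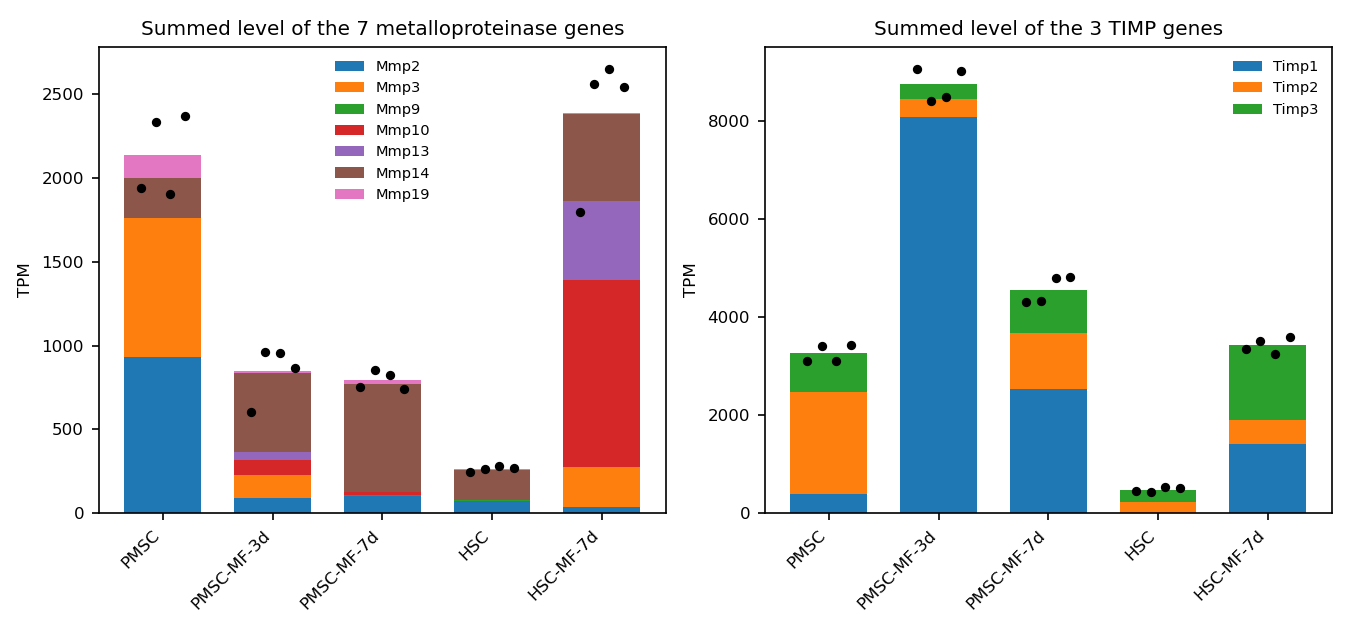
Summed TPM of the 7 MMP genes (left) and the 3 TIMP genes (right) in the 5 groups. Coloured segments are group means over 4 libraries and black points are the sums of single libraries. The MMP sum is made up mostly of Mmp2 and Mmp3 in PMSC, of Mmp14 in PMSC-MF-7d and of Mmp10, Mmp14 and Mmp13 in HSC-MF-7d, and Timp1 makes up most of the TIMP sum in PMSC-MF-3d.

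The stromelysin genes Mmp3 and Mmp10 and the collagenase gene Mmp13 spanned the widest ranges of the 10 genes. All 3 lie in the MMP gene cluster of chromosome 9, with Mmp13 at 7272514 to 7283333, Mmp3 at 7445822 to 7455975 and Mmp10 at 7502342 to 7510242, all on the plus strand (RefSeq, GRCm38.p6, the assembly behind mm10). The 250 bases before each start are shown because the 3 genes share sequence features there that the other members with an entry lack. In each, the capitals mark a TGANTCA match, the site of the transcription factor AP-1, followed by a TATAAA match, the TATA box. They lie at chr9:7445572-7445821 for Mmp3, chr9:7502092-7502341 for Mmp10 and chr9:7272264-7272513 for Mmp13.
Mmp3: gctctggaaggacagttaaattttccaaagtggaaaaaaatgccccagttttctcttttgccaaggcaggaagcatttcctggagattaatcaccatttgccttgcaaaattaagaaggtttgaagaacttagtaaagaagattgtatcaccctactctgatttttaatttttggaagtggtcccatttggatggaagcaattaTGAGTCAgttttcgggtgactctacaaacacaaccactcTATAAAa
Mmp10: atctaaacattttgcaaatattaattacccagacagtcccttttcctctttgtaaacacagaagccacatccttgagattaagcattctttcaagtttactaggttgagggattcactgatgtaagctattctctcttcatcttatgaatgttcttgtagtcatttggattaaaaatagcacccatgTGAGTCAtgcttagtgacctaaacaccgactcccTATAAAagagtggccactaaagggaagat
Mmp13: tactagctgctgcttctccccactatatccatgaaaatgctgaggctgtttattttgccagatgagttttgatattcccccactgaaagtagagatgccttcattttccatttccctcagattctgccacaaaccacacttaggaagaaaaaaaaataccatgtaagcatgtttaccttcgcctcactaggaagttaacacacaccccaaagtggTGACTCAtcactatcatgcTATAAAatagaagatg

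The AP-1 match began 46 bases before the RefSeq start in Mmp3, 63 before it in Mmp10 and 35 before it in Mmp13, and the TATA match began 7, 29 and 16 bases before it. Both strands were searched. Of 32851 RefSeq promoter windows of the same length, 6.75% held a TGANTCA match, 12.4% a TATAAA match and 399, or 1.21%, held both. Entries were found for 7 of the 10 genes. Mmp14, Timp1, Timp2 and Timp3 held no match to either motif and at least 1 match to GGGCGG, the GC box, which 32.7% of windows held. A match is a description of letters and not of a bound site.

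Mmp3 encodes stromelysin 1, which cuts many matrix proteins and activates other proenzymes. In PMSC it was at 572, 987, 728 and 894 CPM, and in HSC at 0.302, 1.01, 0.275 and 0.458 CPM, so that the groups were far apart. The difference was 10.59 ± 0.55 (edgeR adjusted p = 1.9e-12). In a bulk sample, fewer expressing cells and less RNA per cell cannot be told apart.

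During portal culture Mmp3 fell at both steps. Its level was 42.1, 120.4, 118 and 115 CPM at 3 days (-3.01 ± 0.35 against PMSC, edgeR adjusted p = 1.8e-07) and 1.59, 2.94, 2.02 and 1.02 CPM at 7 days (-5.72 ± 0.43 against PMSC-MF-3d, adjusted p = 1.3e-08). Over the whole portal culture the change was -8.72 ± 0.47. In stellate culture the gene moved the other way, to 70.5, 199, 193 and 186 CPM in HSC-MF-7d (8.30 ± 0.52 against HSC, adjusted p = 2.6e-11), or 8.89 without HSC library 2. Library 1 was the lowest of both PMSC-MF-3d and HSC-MF-7d. The cultures PMSC-MF-3d and HSC-MF-7d overlapped (-0.71 ± 0.33, adjusted p = 0.074), and without HSC-MF-7d library 1 the difference passed the threshold at -0.95 (adjusted p = 0.014).

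Mmp10 encodes stromelysin 2, a close relative of stromelysin 1. Both fresh groups were near the limit of detection, with 0.599, 0.253, 0 and 0 CPM in PMSC (13 counts in all) and 0, 0.238, 0.0550 and 0 CPM in HSC (5 counts in all). Cultures of both origins held the transcript in every library. Portal cultures had 24.2, 65.0, 82.9 and 82.8 CPM at 3 days and 5.25, 26.1, 12.2 and 7.78 CPM at 7 days, and HSC-MF-7d had 524, 785, 797 and 802 CPM.

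Mmp10 rose by 8.11 ± 0.71 in the first 3 days of portal culture (edgeR adjusted p = 2.5e-09) and by 13.13 ± 0.79 in stellate culture (adjusted p = 1.3e-11). Because of the few counts in the fresh groups these sizes depend on single libraries: they were 9.32 without PMSC library 1 and 14.78 without HSC library 2, or 14.32 without HSC libraries 1 and 2. From 3 to 7 days of portal culture Mmp10 fell by 2.32 ± 0.42 (adjusted p = 0.00026), with PMSC-MF-7d library 2 at 26.1 CPM just above PMSC-MF-3d library 1 at 24.2 CPM. Without that 7-day library the change was -2.92. HSC-MF-7d had the highest level of any group and did not overlap with another.

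Mmp13 encodes the main interstitial collagenase of rodents, which opens the triple helix of fibrillar collagen. PMSC had 0.200, 0.316, 0 and 0 CPM, PMSC-MF-3d had 14.8, 58.4, 75.4 and 66.9 CPM and PMSC-MF-7d had 1.41, 9.13, 3.37 and 4.88 CPM. The stellate cells had 6.10, 2.26, 1.43 and 2.03 CPM fresh and 306, 535, 632 and 522 CPM after culture. Of the 10 genes it was the one called lower in PMSC than in HSC (-4.35 ± 1.12, edgeR adjusted p = 0.0018), from 8 counts in PMSC and 196 in HSC.

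Mmp13 rose by 8.54 ± 0.86 by day 3 of portal culture (edgeR adjusted p = 1.9e-08), fell by 3.53 ± 0.51 from day 3 to day 7 (adjusted p = 2.7e-05) and rose by 7.40 ± 0.61 in stellate culture (adjusted p = 1.4e-09). The difference between PMSC and HSC was -5.17 without PMSC library 2, -3.72 without HSC library 1 and -3.58 without HSC libraries 1 and 2 (adjusted p = 0.049). The rise by day 3 was 9.40 without PMSC library 2. The stellate rise was 8.20 without HSC libraries 1 and 2 and 8.05 without HSC library 1 alone, which had the highest macrophage marker sum of the 4, 6226 CPM. The part of those cells in its Mmp13 level was not tested.

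Mmp3, Mmp10 and Mmp13 varied together within some groups, but the libraries concerned were extreme for other members too. Library 1 was the lowest of the 4 for all 3 genes in PMSC-MF-3d and again in HSC-MF-7d. It was also lowest for Mmp9, Mmp14 and Timp3 in PMSC-MF-3d, and for Mmp2 and Mmp19 in HSC-MF-7d. The same library was highest for Timp1 in PMSC-MF-3d, and for Mmp9, Mmp14, Timp1 and Timp2 in HSC-MF-7d. In PMSC-MF-7d, library 2 was the highest for all 3 and for Mmp2, and the lowest for Mmp19 and Timp2. That library also had the lowest portal marker sum of its group, 459 CPM against 765 to 1007 CPM, and the part of this in the 3 genes was not tested.

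The chromosome 9 cluster holds 10 MMP genes within 427 kb, and no other protein-coding gene starts between its ends. Along the chromosome they are Mmp13, Mmp12, Mmp1b, Mmp3, Mmp1a, Mmp10, Mmp8, Mmp27, Mmp20 and Mmp7. Outside Mmp3, Mmp10 and Mmp13, the highest group mean in the cluster was that of Mmp27 in HSC, 7.28 ± 5.05 TPM. The neutrophil collagenase gene Mmp8 reached 4.17 ± 1.70 TPM in PMSC-MF-3d and the macrophage elastase gene Mmp12 reached 2.68 ± 1.502 TPM in HSC. Mmp1b, which lies between Mmp12 and Mmp3, reached 3.67 ± 1.75 TPM in HSC-MF-7d and had no counts in HSC, so that it was at least 63.8-fold higher after stellate culture at a floor of 3 counts over the group (edgeR adjusted p = 0.00011). Mmp1a, which lies between Mmp3 and Mmp10, was at most 0.653 TPM as a group mean. High levels in the cluster were thus held by 3 genes, none of them next to another.

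**Figure D2:**
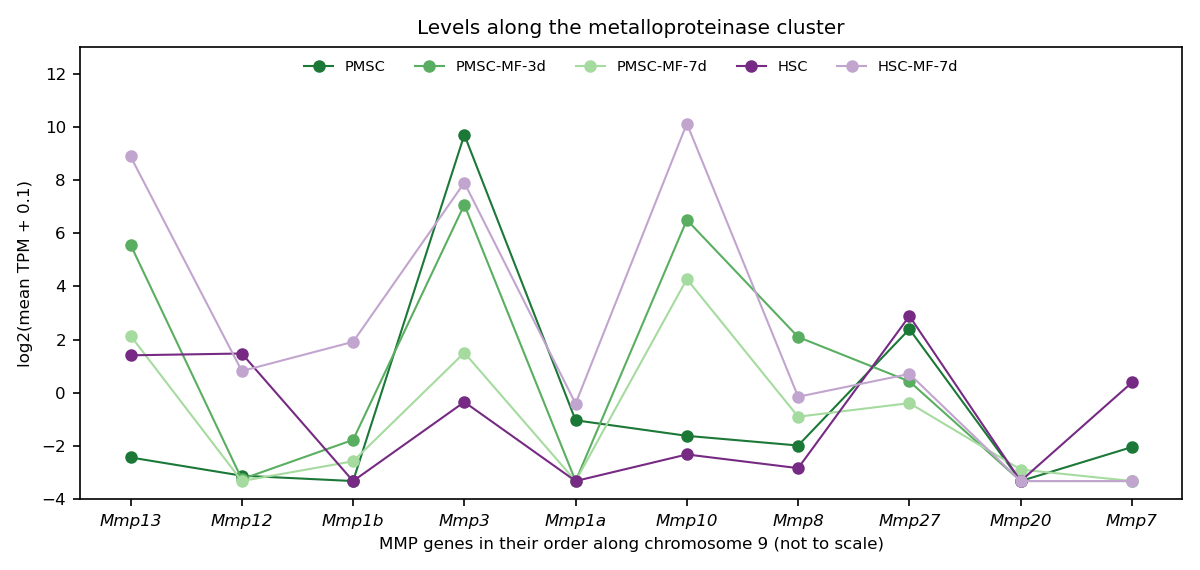
Group mean level, as log2(mean TPM + 0.1) over 4 libraries, of the 10 MMP genes of the chromosome 9 cluster in their order along the chromosome. Peaks stand at Mmp13, Mmp3 and Mmp10, with HSC-MF-7d highest at Mmp13 and Mmp10 and PMSC highest at Mmp3, while the other 7 genes stay at or below 7.28 TPM.

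The gelatinases cut denatured collagen and basement membrane collagen. Mmp2, the constitutive gelatinase of fibroblasts, lies on chromosome 8 at 92827290 to 92853421. It was at 1829.8, 1607, 1390.1 and 1645 CPM in PMSC, far above the highest library of any other group, PMSC-MF-7d library 2 at 187 CPM. HSC had 78.8, 109.9, 115 and 95.6 CPM and HSC-MF-7d the lowest levels, 44.6, 47.5, 49.4 and 48.1 CPM. PMSC exceeded HSC by 4.02 ± 0.19 (edgeR adjusted p = 7.2e-13).

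Mmp2 fell in culture from both origins, by 3.71 ± 0.19 in the first 3 days of portal culture (edgeR adjusted p = 8.8e-13) and by 1.07 ± 0.18 in stellate culture (adjusted p = 1.7e-05). Its portal level was then 119, 145, 128 and 104 CPM at 3 days and 120.3, 187, 121 and 85.4 CPM at 7 days. These 2 groups overlapped, and the fitted difference of 0.05 ± 0.17 was not called (adjusted p = 0.87). It changed sign without PMSC-MF-3d library 4 and without PMSC-MF-7d library 2. Both portal cultures remained above HSC-MF-7d in every library, by 1.39 ± 0.18 at 3 days and 1.44 ± 0.18 at 7 days.

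Mmp9, the gelatinase made mostly by leukocytes, was low in all 20 libraries, at most 3.64 CPM. It was at 2.33, 0.505, 0.731 and 0.639 CPM in PMSC and at 1.57, 2.26, 0.385 and 0.392 CPM in HSC, groups that overlapped (-0.13 ± 0.58, edgeR adjusted p = 0.86). The portal cultures had 1.48, 3.64, 3.34 and 1.84 CPM at 3 days and 0.109, 0.163, 0.257 and 0.141 CPM at 7 days, and HSC-MF-7d had 1.998, 1.37, 1.36 and 1.33 CPM. PMSC-MF-7d was below every library of every other group, and the fall from day 3 to day 7 was 3.90 ± 0.64 (adjusted p = 9.5e-05).

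The rise of Mmp9 by day 3, 1.28 ± 0.56 (edgeR adjusted p = 0.043), lost its call without any 1 of PMSC libraries 2, 3 and 4 or PMSC-MF-3d libraries 2 and 3, with 0.99 to 1.16. It was 2.05 without PMSC library 1, and the fall over the whole portal culture, 2.61 ± 0.65, was then 1.85. On log2(TPM + 1) limma did not call that fall (-0.44, adjusted p = 0.084), and on log2(TPM + 0.1) the change was -1.39. In HSC the level was higher in libraries 1 and 2. The 7 neutrophil markers summed to 22.1, 10.4, 9.68 and 5.36 CPM in HSC libraries 1 to 4, with Ly6g, Mpo and Elane at 0, and to at most 1.23 CPM elsewhere. Without HSC libraries 1 and 2, Mmp9 was 1.42 higher in PMSC than in HSC (adjusted p = 0.068), and its change in stellate culture moved from 0.39 (adjusted p = 0.54) to 1.97 (adjusted p = 0.014). The part of other cells in these values was not tested.

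Mmp14 encodes a membrane-anchored collagenase, the cell-surface activator of the Mmp2 proenzyme. It lies on chromosome 14 at 54431598 to 54442456. Its levels covered the narrowest range of the MMP genes described, from 290.2 to 1034 CPM. PMSC had 514, 501, 617 and 457 CPM, PMSC-MF-3d had 695, 889.7, 802 and 761 CPM and PMSC-MF-7d had 929.9, 1026, 1034 and 1015 CPM, with no overlap between the 3 groups. HSC had 291, 290.2, 305 and 299 CPM, below all other libraries, and HSC-MF-7d had 899, 784, 728 and 772 CPM.

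The steps of Mmp14 were small and in 1 direction: 0.59 ± 0.09 to day 3 (edgeR adjusted p = 9.3e-06), 0.35 ± 0.09 from day 3 to day 7 (adjusted p = 0.0064) and 1.42 ± 0.10 in stellate culture (adjusted p = 5.4e-11). PMSC was 0.82 ± 0.09 above HSC. PMSC-MF-3d and HSC-MF-7d overlapped, with a fitted difference of -0.02 ± 0.09 (adjusted p = 0.90) whose sign turned with scaling by library totals, with no filter on low counts and without any 1 of 3 libraries.

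Mmp19, a widely expressed MMP with basement membrane substrates, lies on chromosome 10 at 128790910 to 128800827. PMSC had 237, 303, 219 and 288 CPM, against 14.2, 12.6, 19.4 and 16.7 CPM at 3 days of culture and 38.7, 22.2, 32.5 and 34.7 CPM at 7 days. The stellate cells had 18.6, 15.97, 3.96 and 4.51 CPM fresh and 4.57, 7.40, 7.90 and 10.7 CPM after culture. PMSC stood clear of every other group, and exceeded HSC by 4.60 ± 0.39 (edgeR adjusted p = 3.2e-09). The fall to day 3 was 4.05 ± 0.38 (adjusted p = 7.1e-09).

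From day 3 to day 7 Mmp19 rose by 1.03 ± 0.35 (edgeR adjusted p = 0.026) with no overlap. The call was lost without any 1 of PMSC-MF-3d libraries 1, 2 and 4 or PMSC-MF-7d libraries 1 and 4, with 0.92 to 1.05. In stellate culture the change was -0.50 ± 0.38 (adjusted p = 0.24), and without HSC libraries 1 and 2, the pair high in hepatocyte markers, it turned to 0.87 (adjusted p = 0.021). Without that pair the difference between PMSC and HSC was 5.94. The part of hepatocyte RNA was not tested. Mmp19 overlaps the antisense gene Gm47093 and the opposite-strand gene Tmem198b, and the strand setting of the counting is not stated in these sources.

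Timp1 encodes the inducible, secreted inhibitor of the family, on the X chromosome at 20870166 to 20874737. It was the gene with the widest range among the TIMPs. HSC had 1.09, 5.96, 1.38 and 1.31 CPM, PMSC 127, 141, 219 and 152 CPM. PMSC-MF-3d had 2729.8, 2404, 2392 and 2641 CPM, PMSC-MF-7d 614, 788, 747 and 822 CPM and HSC-MF-7d 425, 417, 394 and 417 CPM. No 2 groups overlapped, and the order ran from HSC through PMSC, HSC-MF-7d and PMSC-MF-7d to PMSC-MF-3d.

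PMSC exceeded HSC in Timp1 by 6.03 ± 0.37 (edgeR adjusted p = 1.9e-11). In portal culture Timp1 rose by 4.00 ± 0.31 to day 3 (adjusted p = 4.2e-10) and fell by 1.77 ± 0.28 to day 7 (adjusted p = 7.0e-05). In stellate culture it rose by 7.40 ± 0.38 (adjusted p = 1.6e-12). HSC library 2 decided part of the size: without it the values were 6.97 for PMSC against HSC and 8.37 in stellate culture, and without HSC libraries 1 and 2 they were 6.88 and 8.28. That library also had the highest myofibroblast marker sum of the 4, 672 CPM against 253 to 329 CPM, and its part in the level was not tested. PMSC-MF-7d was above HSC-MF-7d by 0.85 ± 0.28 (adjusted p = 0.016), a call lost without HSC-MF-7d library 3 (0.83, adjusted p = 0.052).

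Timp2 encodes the inhibitor that also bridges Mmp14 and the Mmp2 proenzyme at the cell surface, on the minus strand of chromosome 11 at 118301061 to 118355411. It was the TIMP gene with the highest level in PMSC, 4209, 4912, 4127 and 3946 CPM. HSC had 295, 344, 379 and 360.4 CPM, lower by 3.64 ± 0.11 (edgeR adjusted p = 1.9e-15). In portal culture it fell by 2.88 ± 0.11 to 578, 639, 549 and 574 CPM at 3 days (adjusted p = 9.4e-15) and came back by 1.54 ± 0.10 to 1889.8, 1364, 1774 and 1768 CPM at 7 days (adjusted p = 3.2e-09), still 1.34 ± 0.10 below PMSC. In stellate culture it rose by 1.02 ± 0.10 to 711, 699, 686 and 708 CPM (adjusted p = 2.0e-08). The 5 groups did not overlap.

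Timp3 encodes the inhibitor that binds to the matrix, on chromosome 10 at 86300412 to 86349505. PMSC had 2346, 1849, 1757 and 2583 CPM, PMSC-MF-3d had 519.7, 656, 641 and 685 CPM and PMSC-MF-7d had 1547, 1600.4, 1853 and 1856 CPM. The stellate cells had 564, 428, 568 and 550.4 CPM fresh and 2757, 3035, 2673 and 3206 CPM after culture, the latter above every library of the other groups. Like Timp2 it fell to day 3 (-1.77 ± 0.13, edgeR adjusted p = 1.9e-10) and rose to day 7 (1.45 ± 0.13, adjusted p = 9.8e-08). PMSC was 2.02 ± 0.13 above HSC (adjusted p = 5.5e-11), and in stellate culture the gene rose by 2.47 ± 0.13 (adjusted p = 3.0e-12).

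PMSC-MF-7d and PMSC overlapped in Timp3. The change of -0.32 ± 0.13 (edgeR adjusted p = 0.030) was called, but its sign turned when libraries were scaled by their totals (0.14) or compared in TPM (0.18), and the call was lost without any 1 of PMSC libraries 1 and 4 or PMSC-MF-7d libraries 1 and 2 (-0.26 to -0.21). Timp1 lies within Syn1, and Timp3 within Syn3, each on the opposite strand (GENCODE M21). The span of Timp2 overlaps that of the protein-coding gene Cep295nl on the same strand. Whether their exons overlap was not examined. Group means of Syn1 were at most 17.1 CPM and those of Syn3 at most 2.37 CPM.

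**Figure D3:**
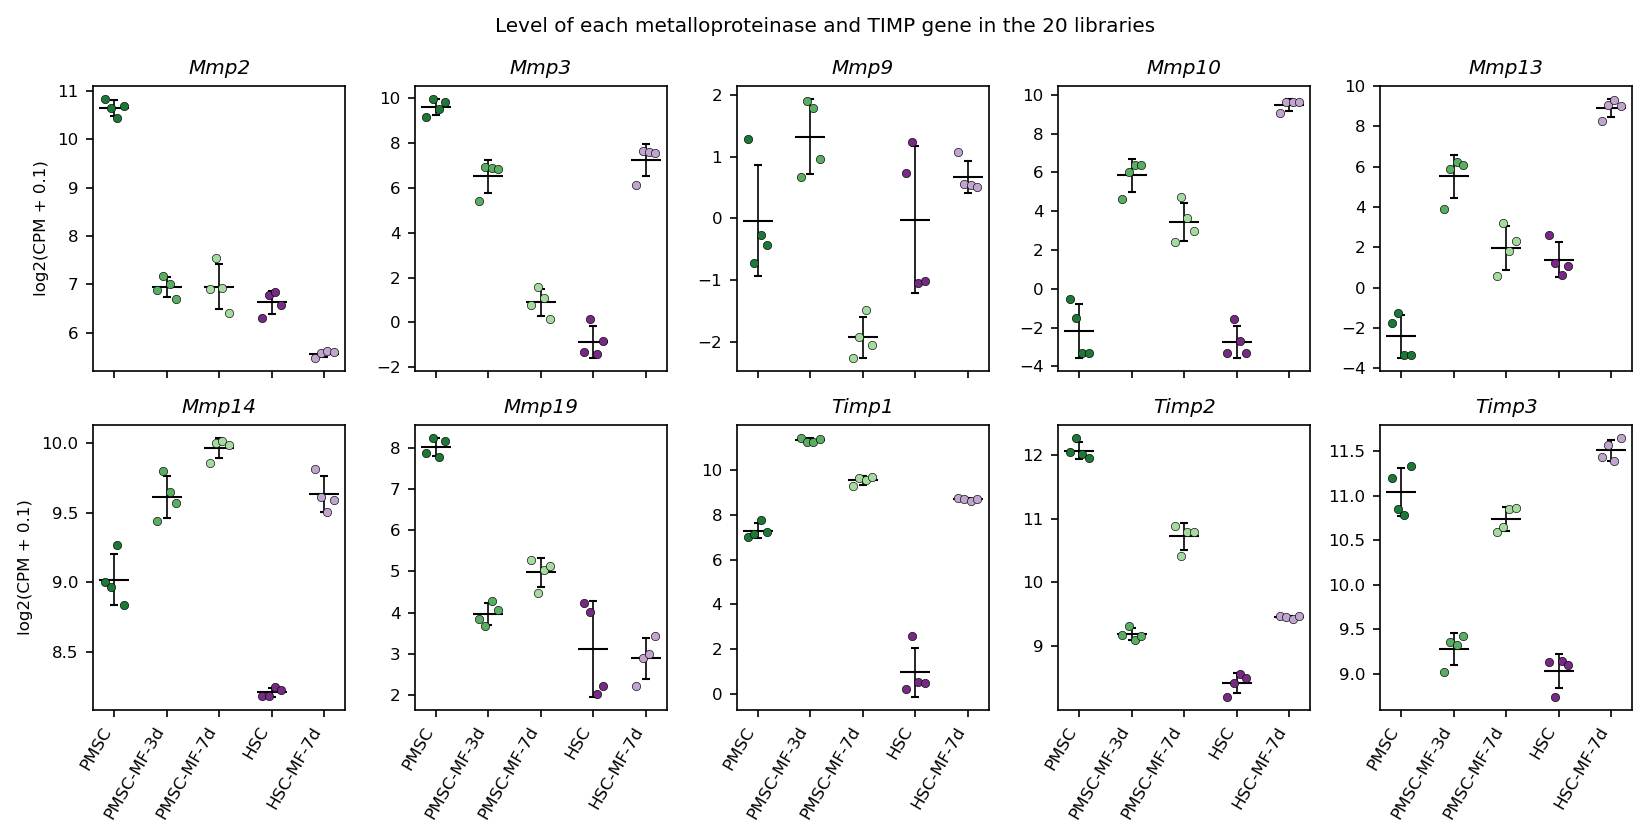
Level of each of the 10 genes as log2(CPM + 0.1) in the 20 libraries, with a panel and axis range for each gene. Points are libraries and black bars are the group mean ± SD of the log2 values (n = 4). Mmp2, Mmp19 and Timp2 are highest in PMSC, Mmp10, Mmp13 and Timp3 in HSC-MF-7d, Timp1 in PMSC-MF-3d and Mmp14 in PMSC-MF-7d.

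Before culture, the portal cells held more MMP and TIMP transcript than the stellate cells for most of the genes. In PMSC against HSC, 8 of the 10 genes were called, against 73.7% of all genes tested. Higher in PMSC were 7, made up of 4 of 7 MMP genes (Mmp2, Mmp3, Mmp14 and Mmp19) and 3 of 3 TIMP genes, against 33.6% of all genes, and Mmp13 was lower, against 40.1%. Mmp9 and Mmp10 (1.52 ± 1.85) were not called. The median log2 fold change of the 10 was 2.83, and that of all genes tested -0.10. Without HSC libraries 1 and 2 there were again 8 called, against 10383 of the 15365 genes then tested.

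The first 3 days of portal culture split the genes into equal groups. All 10 were called, against 78.3% of all genes, 5 higher (Timp1, Mmp9, Mmp10, Mmp13 and Mmp14), against 37.2%, and 5 lower (Mmp2, Mmp3, Mmp19, Timp2 and Timp3), against 41.1%. The median of the 10 was -0.59, and that of all genes -0.07. Over the same step the 5 myofibroblast markers gave 4 higher and 1 lower, and of the 9 portal markers 8 were lower. All 7 hepatocyte and all 7 endothelial markers were lower in PMSC-MF-3d, and their part in the changes was not tested.

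From day 3 to day 7 many of those directions turned. Of the 10 genes 9 were called, against 36.0% of all genes. Mmp14, Mmp19, Timp2 and Timp3 were higher at day 7, against 18.6% of all genes, and Mmp3, Mmp9, Mmp10, Mmp13 and Timp1 lower, against 17.4%. The median of the 10 was -0.86, and that of all genes 0.00. Timp1, Mmp9, Mmp10 and Mmp13 thus went up and then down, Mmp19, Timp2 and Timp3 went down and then up, Mmp3 went down at both steps and Mmp14 up at both. These steps share the PMSC-MF-3d libraries, so a PMSC-MF-3d library that is high or low by itself moves both. Over the whole portal culture all 10 were called, against 77.0% of all genes, 4 higher (Timp1, Mmp10, Mmp13 and Mmp14), against 38.1%, and 6 lower, against 39.0%. Among these, Mmp10 and Mmp13 rose by 5.79 ± 0.75 and 5.01 ± 1.03, or 7.01 without PMSC library 1 and 5.84 without PMSC library 2. Over the same span 4 of 5 mesothelial markers were higher and 1 lower, and their sum was 59.7 to 109 CPM in PMSC and 50.8 to 101 CPM in PMSC-MF-7d. From day 3 to day 7, 3 of the 5 were higher, and their part in the changes was not tested.

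Most of the genes were higher after stellate culture than in HSC. Of the 10, 8 were called, against 74.5% of all genes tested, 7 of them higher (Mmp3, Mmp10, Mmp13, Mmp14, Timp1, Timp2 and Timp3), against 36.0% of all genes, and Mmp2 lower, against 38.5%. The median of the 10 was 1.95, and that of all genes -0.03. In the same comparison all 7 hepatocyte, all 7 endothelial and all 7 macrophage markers were lower in HSC-MF-7d, and all 5 myofibroblast markers were higher. The part of other liver cells in the changes of the 10 genes was not tested. Without HSC libraries 1 and 2 all 10 genes were called, with Mmp9 and Mmp19 added among the higher, against 10574 of the 15365 genes then tested.

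**Figure D4:**
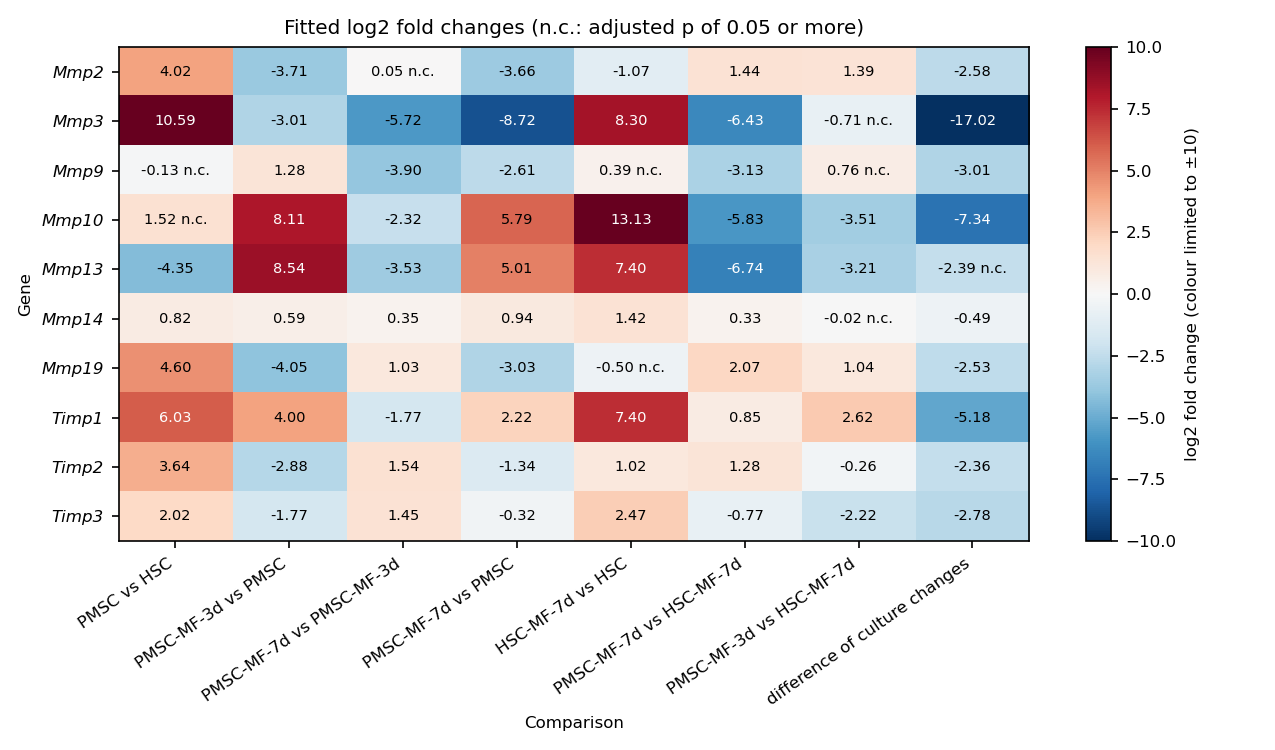
Fitted log2 fold changes of the 10 genes in the 8 comparisons, with the value printed in each cell and n.c. where the edgeR adjusted p was 0.05 or more. Red cells are higher and blue cells lower in the group named at the start of the comparison, and the last column is the portal culture change (PMSC-MF-7d vs PMSC) minus the stellate one, where only Mmp13 is not called.

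The culture changes of the 2 origins were set against each other in 1 term of the fit, the portal change to day 7 minus the stellate change. It was below 0 in all 10 genes and called in 9, all lower, against 60.6% of all genes called, 29.2% lower and 31.4% higher. The term equals the difference of PMSC-MF-7d from HSC-MF-7d minus that of PMSC from HSC. It uses the same libraries and is no separate result from these comparisons. The part of other liver cells in HSC in this term was not tested. The median of the 10 was -2.68, and that of all genes 0.10. The largest was that of Mmp3, -17.02 ± 0.70 (edgeR adjusted p = 4.1e-13), which fell by 8.72 in portal and rose by 8.30 in stellate culture. Timp2 and Timp3 also had opposite signs, with -1.34 and 1.02 for Timp2 (difference -2.36 ± 0.14, adjusted p = 6.5e-11) and -0.32 and 2.47 for Timp3 (-2.78 ± 0.18, adjusted p = 1.8e-10). The portal sign of Timp3 turned to 0.14 with library totals and 0.18 in TPM.

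Mmp10, Mmp13, Mmp14 and Timp1 rose in both cultures, and for all of these but Mmp13 the portal rise was called smaller. Timp1 rose by 2.22 ± 0.29 against 7.40 ± 0.38 (difference -5.18 ± 0.44, edgeR adjusted p = 7.3e-09), and the difference was -6.12 without HSC library 2 and -6.02 without HSC libraries 1 and 2. For Mmp14 the difference was -0.49 ± 0.13 (adjusted p = 0.0035). Its call was lost in 3 alternative runs, among them scaling by library totals (-0.15), and the smallest value was -0.11. Mmp10 differed by -7.34 ± 2.12 (adjusted p = 0.0056), and this call was lost without PMSC library 1 (-6.13, adjusted p = 0.13). The value was -7.93 without PMSC-MF-7d library 2 and -8.97 without HSC library 2, or -8.50 without HSC libraries 1 and 2 (adjusted p = 0.024).

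Mmp2 fell in both, by 3.66 ± 0.19 in portal and 1.07 ± 0.18 in stellate culture (difference -2.58 ± 0.25, edgeR adjusted p = 3.7e-08). For Mmp19 the difference was -2.53 ± 0.51 (adjusted p = 0.00028), and for Mmp9 it was -3.01 ± 0.86 (adjusted p = 0.0050), or -2.24 without PMSC library 1. Without HSC libraries 1 and 2 they were -3.86 and -4.54. Mmp13, at -2.39 ± 2.10, was not called (adjusted p = 0.34). It was called in 3 alternative runs, among them DESeq2 (-2.37, adjusted p = 0.038). Over all alternative runs its value ran from -4.993 to -1.595. If the stellate culture lasted 3 days, as the series text has it, the cultures compared in this term differ in time as well as in origin, and the contributions cannot be told apart.

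**Figure D5:**
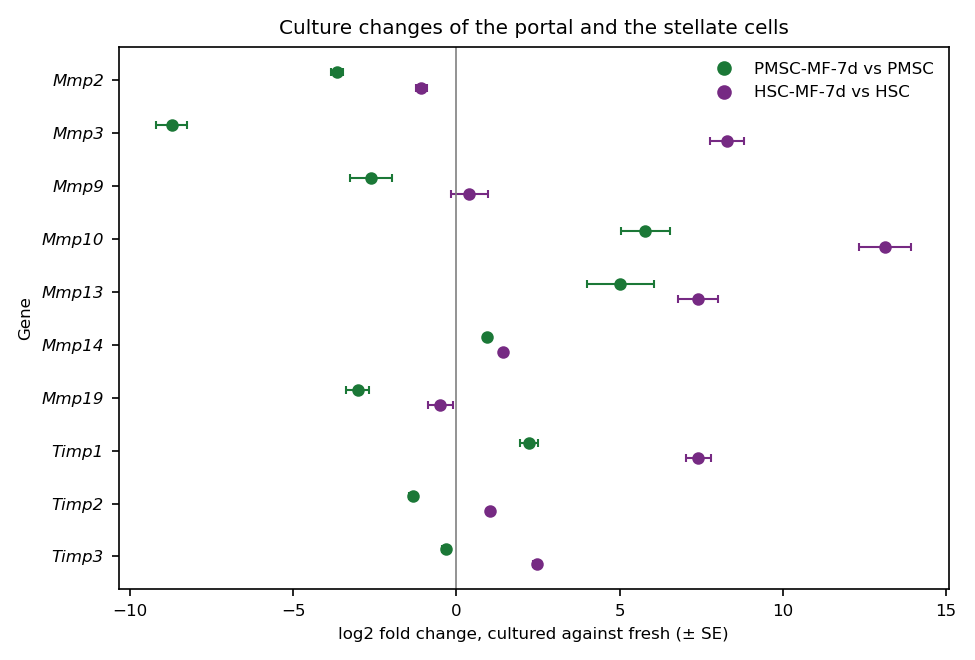
Log2 fold change ± SE of each gene over the whole portal culture (PMSC-MF-7d against PMSC, green) and over stellate culture (HSC-MF-7d against HSC, purple), n = 4 libraries per group. The purple point lies to the right of the green point for all 10 genes, with the widest gap at Mmp3.

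The cultures themselves differed in most of the genes. In PMSC-MF-7d against HSC-MF-7d all 10 were called, against 47.1% of all genes. The stellate culture had more Mmp10 (-5.83 ± 0.48, edgeR adjusted p = 9.1e-09), Mmp13 (-6.74 ± 0.58), Mmp3 (-6.43 ± 0.44), Mmp9 and Timp3 (-0.77 ± 0.13). The portal culture had more Mmp2, Mmp14 (0.33 ± 0.09), Mmp19 (2.07 ± 0.37), Timp1 and Timp2 (1.28 ± 0.10). Of all genes 23.9% were higher and 23.1% lower in the portal culture. Without PMSC-MF-7d library 2 the Mmp10 value was -6.42. In the same comparison 6 of 7 endothelial, 4 of 7 macrophage and 3 of 5 cholangiocyte markers were lower in the portal culture, and 3 of 5 mesothelial markers higher, and their part was not tested. The sums in PMSC-MF-7d and HSC-MF-7d were 1.18 to 2.57 and 12.7 to 20.1 CPM for the endothelial list, 7.66 to 11.7 and 10.8 to 19.7 CPM for the macrophage list, 28.3 to 33.9 and 44.96 to 115 CPM for the cholangiocyte list and 50.8 to 101 and 8.29 to 16.7 CPM for the mesothelial list. The median of the 10 was -0.22, and that of all genes 0.

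Against the 3-day portal culture, 7 of the 10 were called, 3 higher and 4 lower in the portal culture, against 54.6% of all genes called, 27.2% higher and 27.4% lower. Mmp10 (-3.51 ± 0.43, edgeR adjusted p = 1.1e-06), Mmp13 (-3.21 ± 0.48) and Timp3 (-2.22 ± 0.13) were again higher in HSC-MF-7d, and Mmp2, Mmp19 (1.04 ± 0.37) and Timp1 (2.62 ± 0.29) again higher in the portal culture. Mmp3, Mmp9 and Mmp14 were not called. Timp2 was 0.26 ± 0.10 lower in PMSC-MF-3d (adjusted p = 0.034), a call that was lost when any 1 of 7 libraries was left out, which are all of these 8 but PMSC-MF-3d library 2. For Mmp19 the call was lost without any 1 of PMSC-MF-3d libraries 3 and 4 or HSC-MF-7d libraries 1, 2 and 3 (0.87 to 1.07).

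Counts over further gene lists stand beside these shares of all genes: 33.6% higher and 40.1% lower in PMSC against HSC, 37.2% and 41.1% by day 3 of portal culture, 18.6% and 17.4% from day 3 to day 7, 36.0% and 38.5% in stellate culture, and 31.4% and 29.2% for the difference of the culture changes. Among 16 other MMP genes, 12 could be tested. In PMSC against HSC 6 were higher and 2 lower (median 1.06). Mmp16, a membrane-type MMP, had no counts in HSC and was at 20.8 CPM over the pooled PMSC libraries, at least 464-fold higher at a floor of 3 counts over the group, and Mmp23 differed by 5.02 ± 0.32. By day 3 of portal culture 9 were lower and 2 higher (median -1.98), among them Mmp23 (-3.11 ± 0.28), and from day 3 to day 7 6 were higher and 1 lower (median 1.06). In stellate culture 4 were higher and 6 lower (median -0.89). The highest group mean of the 16 was that of Mmp23 in PMSC, 255 CPM.

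Of 7 further inhibitor genes 3 could be tested. The membrane-anchored inhibitor Reck, at 229.7 CPM in PMSC and 187 CPM in HSC, fell in both cultures (-3.03 ± 0.19 to day 3 and -2.99 ± 0.19 in stellate culture). Tfpi2, a serine protease inhibitor of the matrix, was at 228 CPM in PMSC, 56.1 and 21.4 CPM after 3 and 7 days of portal culture, 13.99 CPM in HSC and 321 CPM after stellate culture. Its culture changes had opposite signs, as those of Mmp3 had (difference -7.94 ± 0.37, edgeR adjusted p = 2.3e-12). The fourth TIMP gene, Timp4, had group means of at most 0.0333 CPM.

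Genes listed for the activation of MMP proenzymes or the uptake of MMPs and TIMPs were all measured, 12 of 12. The list was drawn widely and also holds the cell-surface genes Bsg, Cd44 and Cldn1. In PMSC against HSC 9 were higher and 3 lower (median 1.10), among them the tissue plasminogen activator gene Plat (6.60 ± 0.36) and the proprotein convertase gene Pcsk6 (5.93 ± 0.31). The plasminogen gene Plg, a hepatocyte product, was at 189 CPM in HSC and 3.42 in PMSC, beside the hepatocyte marker sums above. In stellate culture 7 were higher and 3 lower (median 1.23), with the urokinase receptor gene Plaur at 3.94 ± 0.24. The difference of the culture changes was called for 8 of the 12, all lower (median -1.01).

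Of 14 genes of cytokine systems known to induce MMPs, ligands, receptors and the antagonist gene Il1rn included, 13 were tested. In PMSC against HSC 7 were higher and 6 lower (median 0.26): Lif (8.10 ± 0.42), Il11 (7.05 ± 0.53) and Il6 (6.70 ± 0.37) were higher in PMSC, and Il1b (-8.02 ± 0.55) was lower. Il1a and Il1b, at 271 and 201 CPM in HSC, were at most 0.491 CPM in HSC-MF-7d, where 9 of the 13 were lower and 3 higher. The macrophage markers fell in the same comparison, and their part was not tested. Il6 fell by 7.61 ± 0.38 by day 3 of portal culture, where 10 were lower and 2 higher.

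Among 14 AP-1, ETS and RUNX factor genes, all tested, 11 were lower and 2 higher by day 3 of portal culture (median -3.38), against 41.1% and 37.2% of all genes. Fosb fell by 9.70 ± 0.38, Atf3 by 8.86 ± 0.36 and Fos by 8.10 ± 0.50. Of the 3 members with an AP-1 match in the sequences above, Mmp10 and Mmp13 rose and Mmp3 fell. The part of these factors in the levels of the 3 genes was not tested. In stellate culture 8 were lower and 4 higher (median -2.28), with Fos at -7.26 ± 0.47. Fosl1, another AP-1 subunit, rose there by 6.07 ± 0.32, from 0.887 to 60.5 CPM, and stood at 196 CPM in PMSC, 129 CPM after 3 days and 51.1 CPM after 7 days of portal culture.

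Matrix substrates of the MMPs were measured for 15 of 16 genes. In PMSC against HSC 11 were higher and 1 lower (median 0.82), among them Vcan (6.16 ± 0.26), Eln (6.05 ± 0.77) and Col1a1 (5.14 ± 0.36). By day 3 of portal culture 9 were lower and none higher (median -0.93), led by Dcn (-6.16 ± 0.28), and from day 3 to day 7 11 were higher and 1 lower (median 0.80), with Col2a1 at 7.71 ± 0.88 (0.166 to 36.3 CPM), Eln at 2.90 ± 0.67 and Fn1 at 2.23 ± 0.16. In stellate culture 7 were higher and 4 lower (median 0.50), with Vcan at 5.46 ± 0.25 and Dcn at -3.33 ± 0.25.

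The genes nearest in pattern to each member were sought over the 20 libraries by the root mean square (RMS) difference of log2 CPM centred on each gene's mean, among 14013 other genes with established names. The RMS scales with a gene's own spread, so it is not ranked between members. Mmp14, whose own log2 SD of 0.64 was the smallest of the 10, was nearest to Slc25a4, Scamp3 and Myl6, with RMS differences of 0.17, 0.18 and 0.18 against a median of 0.97 over all genes compared. Mmp2 was nearest to Baiap2, Usp2 and Kcnt2 (0.44 to 0.51, median 1.95), and Mmp19 to Msx1, Usp2 and Adam22 (0.54 to 0.63, median 2.12). Timp1 was nearest to the collagen cross-linking gene Lox, to Phgdh and to Nrcam (0.79 to 0.90, median 3.63). Timp3 was nearest to Loxl2, Cacna1a and Cdkn1a (0.43 to 0.45) and Timp2 to Lynx1, Cbarp and Cry2 (0.36 to 0.39).

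Mmp10 was nearest to Lce1g, Serpinb2 and Crct1 (1.19 to 1.36, median 4.82), Mmp13 to Slc26a7, Igsf11 and Lce1l (1.64 to 1.78) and Mmp3 to Acsbg1, Lif and Adamts8 (1.58 to 2.05). Mmp9 was nearest to Mtmr7, Apol9b and Sel1l3 (0.80 to 0.87). Within the family, Mmp2 and Mmp19 were each other's nearest (0.81), as were Mmp14 and Timp3 (0.88) and Mmp10 and Mmp13 (2.07). The 0.88 of Mmp14 and Timp3 is no close match. It exceeded the log2 SD of Mmp14, 0.64, and was near the median of 0.97 between Mmp14 and all genes compared. These distances are descriptions over libraries of 5 groups and carry no p.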

How the data were processed

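Per the labels' protocols, RNA of 20 libraries was purified by RNeasy Micro and made into libraries by KAPA Stranded mRNA-Seq. The submitters' processing notes name FastQC, Trimmomatic, STAR 2.5.3a, RSEM 1.2.28 and mm10, with no role or setting given. The deposited expected counts are RSEM estimates per gene, per the file headers, and were rounded here. The deposited TPM values, per the file headers, are RSEM's levels per length and were used to compare genes. The deposited FPKM values, per the file headers, entered no result.

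Libraries were grouped by title. Counts were fitted with edgeR 4.0.16 in R 4.3.3 (TMM scaling, filterByExpr by group, robust quasi-likelihood test, 1 mean per group, all 20 libraries), for 8 comparisons and 14751 genes, with Benjamini-Hochberg adjustment. The fit recovered seeded changes when tested on simulated data. There the groups differed only in the seeded genes, far fewer than were called here, and the difference of culture changes was not simulated. The standard error is the log2 fold change over the square root of F. Alternatives used DESeq2 1.42.0, limma 3.58.1 on log2(TPM + 1) and log2(TPM + 0.1), other scalings, no filter, a replicate block, only the groups compared, and each library left out.

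The members and gene lists were chosen with earlier results of these data known. All 10 members are described. Of the other lists, counts are given with up to 4 called genes per comparison, taken by size of change among those reaching 10 CPM in 1 of the groups. Levels of Timp4, of the chromosome 9 neighbours and of these named genes in further groups were added after their values were seen. The 3 genes most alike are named for each member. Coordinates and promoter sequences are from RefSeq for GRCm38.p6, and gene overlaps from GENCODE M21. No pair of replicates agreed within sampling noise.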

Additional observations from a re-analysis of the deposited data

Results flagged for a closer look

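In 7 of 50 sets of 4 libraries (10 genes in 5 groups), the highest or lowest library lay far from the other 3. About 1 in 20 sets would be flagged by chance if the values were independent and normally spread. Genes of the same library are not independent and some values rest on few counts, so 7 is not to be read against that rate. Mmp3 was at 42.1 CPM in PMSC-MF-3d library 1 against 115 to 120.4 CPM in the others, and at 70.5 CPM in HSC-MF-7d library 1 against 186 to 199 CPM. In the same stellate culture library Mmp10 was at 524 CPM against 785 to 802 CPM, and Mmp9 at 1.998 CPM against 1.33 to 1.37 CPM. Mmp9 was at 2.33 CPM in PMSC library 1 against 0.505 to 0.731 CPM. In HSC library 2, Timp1 was at 5.96 CPM against 1.09 to 1.38 CPM and Timp3 at 428 CPM against 550.4 to 568 CPM.

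For 9 genes the culture change of the portal cells differed from that of the stellate cells in the edgeR test of the difference itself. The differences, portal minus stellate on the log2 scale, were -17.02 for Mmp3, -7.34 for Mmp10, -5.18 for Timp1, -3.01 for Mmp9, -2.78 for Timp3, -2.58 for Mmp2, -2.53 for Mmp19, -2.36 for Timp2 and -0.49 for Mmp14. Alternative runs lost the call of Mmp10 in 1 case and that of Mmp14 in 3.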

How the results depend on the processing

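The counts of called genes stayed within 1.5 times their main values in every alternative run. Of 668 values under other settings 641 kept their direction and side of the threshold, and of 720 with 1 library left out 682 did. Other settings reversed 7 values. Without HSC libraries 1 and 2, Mmp9 in PMSC against HSC became 1.42 and Mmp19 in stellate culture 0.87. Timp3 in PMSC-MF-7d against PMSC became 0.14 with library totals, 0.18 with limma on log2(TPM + 1) and 0.18 on log2(TPM + 0.1). The value for Mmp14, PMSC-MF-3d vs HSC-MF-7d, became 0.0298 with library totals and 0.0059 with no filter. With 1 library left out, Mmp9 in PMSC against HSC ran from -0.89 to 0.42, Mmp2 in PMSC-MF-7d against PMSC-MF-3d from -0.19 to 0.20 and Mmp14 in PMSC-MF-3d against HSC-MF-7d from -0.0697 to 0.0572. The cause was not tested. Scaling by library totals moved the median of all genes to -0.44 in PMSC against HSC, 0.41 in PMSC-MF-3d against PMSC, 0.43 in PMSC-MF-7d against PMSC and 0.44 in the difference of culture changes. The share of higher genes among all called then moved from 45.6% to 33.3%, from 47.5% to 61.7%, from 49.4% to 63.5% and from 51.8% to 66.0%. On log2(TPM + 1) it was 31.6%, 60.05%, 65.2% and 68.0% in these comparisons and 64.4% against 51.7% from day 3 to day 7.

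The replicate numbers were not used to pair the samples. Deviations of same-numbered libraries correlated at -0.0409 to 0.145, and at most 1 of 4 pairs passed 0.1. At most 3 of 4 correlated best with their own number. That was in PMSC-MF-7d against PMSC-MF-3d (0.00243 to 0.122), where pairing is not settled by these values. With a replicate block the calls were 8, 10, 8, 10, 8, 10, 7 and 9 in the order of the plot of fold changes, against 8, 10, 9, 10, 8, 10, 7 and 9. Mmp19 from day 3 to day 7 (1.01, edgeR adjusted p = 0.050) was then not called, and in PMSC-MF-3d against HSC-MF-7d Timp2 (-0.26, adjusted p = 0.052) was not called and Mmp3 (-0.71, adjusted p = 0.0095) was. Low counts limit Mmp9 and the fresh levels of Mmp10 and Mmp13, and log2(TPM + 1) understates the changes of low genes. On that scale Mmp13 was -1.60 against -4.35 in PMSC against HSC, 5.25 against 8.54 by day 3 and 2.13 against 5.01 over the whole portal culture, Mmp10 was 9.97 against 13.13 in stellate culture and 6.09 against 8.11 by day 3, and Mmp9 was -1.30 against -3.90 from day 3 to day 7.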
